A study of Mus musculus with 2 samples.

Results

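The genes described here encode the IkB proteins and the A20-type brakes of NF-kB. They are Nfkbia, Nfkbib and Nfkbie (the cytoplasmic IkB proteins alpha, beta and epsilon), Bcl3, Nfkbid and Nfkbiz (the nuclear members Bcl-3, IkBNS and IkB-zeta), and Tnfaip3, Tnip1 and Cyld (A20, ABIN1 and the deubiquitinase CYLD). These 9 genes were taken by their symbols in the GENCODE M21 annotation, out of 55536 annotated genes, and all 9 were found by identifier with 53 annotated transcripts. RNA of the chromatin fraction was sequenced from bone marrow-derived macrophages of C57BL/6J mice, after depletion of ribosomal RNA, at 0 minutes of lipid A, the membrane anchor of endotoxin that Toll-like receptor 4 senses, at a dose of 100 ng/ml. There were 2 libraries of this 1 group, replicates 1 and 2, made from 250 and 500 ng of RNA. The labels name no genetic change and do not give the age or sex of the animals. They call the libraries biological replicates but give both the same donor entry, so animal-to-animal variation may not be part of their spread. No other time or treatment was analysed here, so all values are descriptions of the state at 0 minutes, and no condition was tested.

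In resting cells the cytoplasmic IkB proteins hold NF-kB dimers through their ankyrin repeats. Toll-like receptor signals lead to their phosphorylation, ubiquitination and destruction, and the freed NF-kB then switches on genes that include Nfkbia and Tnfaip3, which closes a negative feedback loop. The nuclear IkB proteins bind NF-kB on DNA and can raise or lower the transcription of its targets, while A20, ABIN1 and CYLD act upstream on the ubiquitin chains that carry the signal to the kinases.

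The stretches in front of the start sites are shown first because several of these genes are known NF-kB targets. The RefSeq promoter table (GRCm38.p6, the mm10 build) held entries for 8 of the 9 genes, all but Nfkbiz, with 11 start sites. The 250 bases before each start were searched on both strands for the 10-base kB consensus (3 G bases, a purine, 2 free bases, 2 pyrimidines and 2 C bases). A match was present for 6 of the 8 genes and before 6 of the 11 starts, against 8.23% of 27025 genes and 7.25% of 32851 promoters in the table. The 13 matches fell into 8 distinct stretches, since several read as a match on both strands or overlap each other. Matches on these letters are descriptions and not measured binding. Each sequence below reads 5′ to 3′ along the gene's strand and ends on the base before its start site, with matches to the kB consensus in capitals.
Nfkbia, chr12:55492648-55492897, minus strand: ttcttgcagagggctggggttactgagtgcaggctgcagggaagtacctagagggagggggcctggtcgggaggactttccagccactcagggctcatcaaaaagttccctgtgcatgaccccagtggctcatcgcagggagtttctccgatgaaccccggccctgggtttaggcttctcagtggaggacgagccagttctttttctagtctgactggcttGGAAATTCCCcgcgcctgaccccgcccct
Nfkbie, chr17:45555450-45555699, plus strand: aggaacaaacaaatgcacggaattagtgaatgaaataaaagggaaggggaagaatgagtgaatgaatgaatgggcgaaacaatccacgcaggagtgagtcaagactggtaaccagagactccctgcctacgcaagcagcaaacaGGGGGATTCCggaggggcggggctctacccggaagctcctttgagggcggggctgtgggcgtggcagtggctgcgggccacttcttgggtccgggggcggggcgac
Nfkbid, the middle of its starts (Nfkbid-202), chr7:30422156-30422405, plus strand: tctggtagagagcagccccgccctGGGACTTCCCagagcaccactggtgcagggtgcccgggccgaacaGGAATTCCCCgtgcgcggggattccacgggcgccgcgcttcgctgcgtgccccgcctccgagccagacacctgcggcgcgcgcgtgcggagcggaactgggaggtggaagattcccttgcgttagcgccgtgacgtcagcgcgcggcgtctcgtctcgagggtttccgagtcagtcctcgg
Tnfaip3, its upstream start (Tnfaip3-201), chr10:19015411-19015547, minus strand: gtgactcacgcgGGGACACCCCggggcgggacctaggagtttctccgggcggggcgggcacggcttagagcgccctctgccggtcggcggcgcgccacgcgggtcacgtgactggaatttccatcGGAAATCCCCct
Tnfaip3, its internal start (Tnfaip3-202), chr10:19011964-19012213, minus strand: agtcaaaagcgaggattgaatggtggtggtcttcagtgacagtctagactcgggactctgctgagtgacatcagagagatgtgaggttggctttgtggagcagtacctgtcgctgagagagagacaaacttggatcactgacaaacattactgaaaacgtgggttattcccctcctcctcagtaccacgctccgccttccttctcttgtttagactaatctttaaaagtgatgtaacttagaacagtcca
Tnip1, chr11:54962941-54963190, minus strand: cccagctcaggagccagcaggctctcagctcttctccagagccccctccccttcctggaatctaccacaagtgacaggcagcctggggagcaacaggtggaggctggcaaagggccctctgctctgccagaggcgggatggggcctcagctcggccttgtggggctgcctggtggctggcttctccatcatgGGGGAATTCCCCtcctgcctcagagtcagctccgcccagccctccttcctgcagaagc
Cyld, chr8:88696778-88697027, plus strand: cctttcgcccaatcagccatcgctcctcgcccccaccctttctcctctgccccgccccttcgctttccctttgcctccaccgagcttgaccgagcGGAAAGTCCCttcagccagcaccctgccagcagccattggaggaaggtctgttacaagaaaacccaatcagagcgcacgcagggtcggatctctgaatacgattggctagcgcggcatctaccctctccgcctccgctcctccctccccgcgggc

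The closest match to a start was that of Tnfaip3 at -12 to -3, with another at -125 to -116 of the same start. The stretch printed for that start holds 137 bases, because an annotated exon of another Tnfaip3 transcript covers nearly all of the rest of the window. The internal Tnfaip3 start is shown for contrast, since its 250 bases hold no match. Nfkbia had its match at -29 to -20 and Nfkbie at -106 to -97. In Tnip1, 4 overlapping matches covered -58 to -47, and in Cyld the match lay at -155 to -146. Nfkbid had 3 starts, and only the window of Nfkbid-202 held matches, at -226 to -217 and at -181 to -172. These letters are not in the window of Nfkbib, and in Bcl3 they occur only after the start, at 2 to 11.

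**Figure D1:**
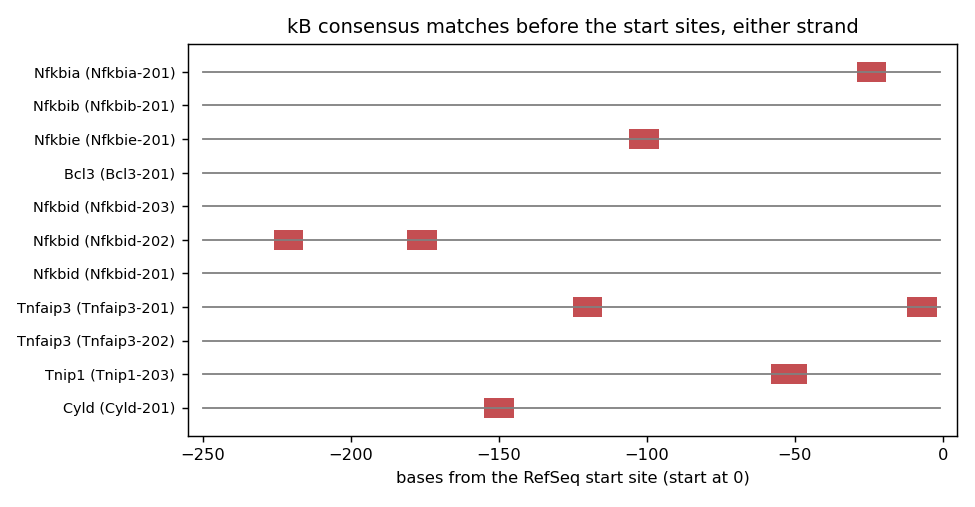
Position of kB consensus matches (red boxes, either strand) in the 250 bases before the 11 RefSeq start sites of 8 genes, with distance from the start site in bases on the x axis. Of the 3 Nfkbid starts and the 2 Tnfaip3 starts, 1 each has matches, and no box lies before the starts of Nfkbib or Bcl3.

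The gene tables held 10933708 and 14168886 expected counts on genes in replicates 1 and 2 (expected counts are estimated reads, with reads that match several places shared out), while 19156113 and 24646446 were assigned in the second transcript tables. All 8 macrophage markers, among them Csf1r and Adgre1, reached 1 TPM in both replicates (a level corrected for transcript length), with means of 13.7 to 175.99 TPM. Of 21 markers of B cells, T cells, neutrophils, dendritic cells and stroma, 1 did so in the gene table (Zbtb46, 1.57 TPM) and 8 had no count in either library. By the second transcript table, 5 of the 21 reached 1 TPM in both replicates. These were Zbtb46, Cd3g, Mpo and Col1a1, none above 3.08 TPM in either library, and Cd3d at 8.34 and 10.8 TPM. Cd3d had 282 and 351 counts there, against 1 and 0 in the gene table of the same libraries. The T cell genes Cd3e and Lck stayed at or under 0.163 TPM in the second transcript table. In bulk RNA, fewer cells of a type and less RNA per cell cannot be told apart.

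Chromatin RNA of all 9 genes was present before stimulation. All 9 reached 1 TPM in both replicates, whereas 46.7% of 22015 protein-coding genes did. By the second transcript table, too, 9 of 9 did so, beside 55.7% of 21938. The ubiquitin-dependent brakes together carried 77.2 and 75.04 TPM in replicates 1 and 2, the nuclear IkB genes 31.3 and 29.7 TPM, and the cytoplasmic IkB genes 15.1 and 16.0 TPM. The median of the 9 mean levels was 10.1 TPM, close to the 11.1 TPM of the 10284 protein-coding genes detected in both replicates and above the 0.72 TPM of all protein-coding genes.

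Among the cytoplasmic IkB genes, Nfkbia (ENSMUSG00000021025.8, chromosome 12, 55489410 to 55492647, minus strand) encodes IkB-alpha, which is rebuilt fastest after a signal. It had 129 and 186 expected counts in replicates 1 and 2, or 9.63 and 9.87 TPM, and its mean of 9.75 ± 0.170 TPM (SD, n = 2) was the highest of the 3. Nfkbib (ENSMUSG00000030595.15, chromosome 7, 28758251 to 28767512, minus strand), which encodes the more slowly degraded IkB-beta, stood at 3.08 and 3.46 TPM. These rest on 34 counts in replicate 1 (95% exact Poisson interval 23.5 to 47.5) and 65 in replicate 2 (50.2 to 82.8). Nfkbie (ENSMUSG00000023947.8, chromosome 17, 45555703 to 45563169, plus strand), the gene of IkB-epsilon, had the lowest TPM of all 9 at 2.38 and 2.67, from 61 and 107 counts. Nfkbib had fewer counts than Nfkbie, at effective lengths of 1066 and 1211 bases against 2476 and 2586 for Nfkbie. Nfkbia lay above the other 2 in both libraries, and the replicate ranges of the 3 genes did not overlap. Such ranges of 2 values do not include the counting error.

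The summed level of the nuclear IkB genes lay between those of the other groups. Bcl3 (ENSMUSG00000053175.17, chromosome 7, 19808462 to 19822770, minus strand) encodes a partner of p50 and p52 homodimers and had 15.4 and 10.8 TPM, the widest gap between replicates of the 9 on this scale. Its counts were 128 and 159, and its effective length in the gene table was 803 bases in replicate 1 and 950.1 in replicate 2. Nfkbid (ENSMUSG00000036931.15, chromosome 7, 30421732 to 30428746, plus strand), the gene of IkBNS, had 11.02 and 12.8 TPM from 197 and 271 counts. Its replicate range overlapped that of Bcl3, so the gene table does not separate this pair. Nfkbiz (ENSMUSG00000035356.17, chromosome 16, 55811375 to 55838899, minus strand) encodes IkB-zeta, a coactivator needed for many secondary response genes such as Il6, and was lower than both at 4.92 and 6.12 TPM (169 and 306 counts).

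Tnip1 (ENSMUSG00000020400.17, chromosome 11, 54910785 to 54962917, minus strand) encodes ABIN1, which links A20 to ubiquitin chains. It had the highest TPM of the 9, at 43.5 and 40.8 (42.2 ± 1.92, SD, n = 2). These came from 401 and 626 counts at effective lengths of 890 and 989 bases, against 3549 and 3298 bases for Cyld. In the first transcript table, Tnip1-208 (941 bases) held 11.3 and 9.92 TPM and Tnip1-209 (442 bases) 10.6 and 14.1. The leading Tnip1-205 (2642 bases) held 7.51 and 7.67 TPM, so the Tnip1 rank rests in part on short transcript models. Cyld (ENSMUSG00000036712.15, chromosome 8, 88697028 to 88751945, plus strand), which encodes an enzyme that removes linear and K63-linked ubiquitin chains, came next at 22.9 and 24.9 TPM and had the most counts, 843 and 1273. Both lay apart from all other members in the gene table. Tnfaip3 (ENSMUSG00000019850.11, chromosome 10, 19000910 to 19015657, minus strand) encodes A20, an enzyme that edits ubiquitin chains, and had 10.8 and 9.35 TPM from 309 and 445 counts. Its replicate range overlapped that of Nfkbia, so the gene table does not separate these feedback genes from each other.

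**Figure D2:**
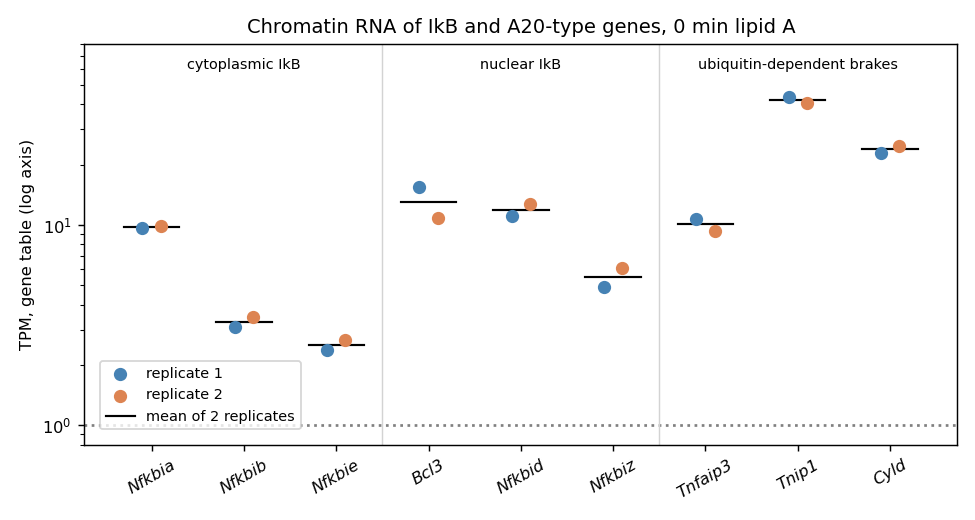
Level of each gene in TPM of the gene table (log axis) in replicate 1 (blue) and replicate 2 (orange), with the mean of the 2 replicates as a line and the 1 TPM detection level dotted. Tnip1 and Cyld lie highest, Nfkbib and Nfkbie lowest, and the replicates of Bcl3 are the farthest apart at 15.4 and 10.8 TPM.

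No member differed by 1.5-fold or more between replicates on counts scaled by TMM. Of 11135 protein-coding genes 6.04% did, so the absence among only 9 members does not set them apart. The log2 ratio of replicate 2 over replicate 1 ran from -0.19 in Bcl3 to 0.43 in Nfkbib, with a median of 0.09 over the 9, beside 0.02 over the protein-coding genes. Nfkbiz at 0.35 and Nfkbie at 0.31 were the next highest. Nfkbia and Tnfaip3 were nearly level, with log2 ratios of 0.03 and 0.02. With second-table counts the log2 ratio of Bcl3 was 0.10, that of Nfkbib -0.07 and that of Nfkbid 0.10 (against -0.04 in the gene table), so the direction of these 3 small differences turns with the table. For Bcl3 the log2 ratio of TPM was -0.51, larger in size than that of its counts.

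Transcripts annotated as retained intron carried very different shares of the members' counts. Of the 9 genes, 7 have such a transcript in the annotation, and Nfkbib and Nfkbiz have none. In the first transcript table the share was 54.1% and 62.6% of the counts of Tnfaip3 in replicates 1 and 2, and 61.1% and 73.9% of those of Nfkbie. It was 31.9% and 30.8% in Cyld, 29.9% and 26.2% in Bcl3 and 5.63% and 7.07% in Tnip1. It was lowest in Nfkbia at 1.81% and 5.11% and in Nfkbid at 0.624% and 5.35%. A share of 50% or more was thus found in 2 of the 7, beside 30.5% of 5042 protein-coding genes. Those genes have such a transcript and at least 100 counts in each library. Nfkbie, 1 of the 2, had 61 counts in replicate 1, under that limit, and is kept in the counts and medians here. The median over the 7 was 28.0% ± 2.61 (SD, n = 2), beside 31.1% over those genes. As a share of TPM, which corrects for transcript length, Bcl3 stood at 58.02% and 56.3%, so that 3 of the 7 reached 50%, beside 48.1% of those genes. On that scale Tnip1 stood at 24.3% and 34.6%, Nfkbid at 3.99% and 27.5% and Nfkbia at 5.09% and 13.6%, each higher than as a share of counts. Of those genes, 8.03% had a lower mean share of counts than Nfkbia and 6.86% a lower one than Nfkbid, against 77.1% for Tnfaip3 and 84.8% for Nfkbie, whose own counts in replicate 1 were under 100.

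**Figure D3:**
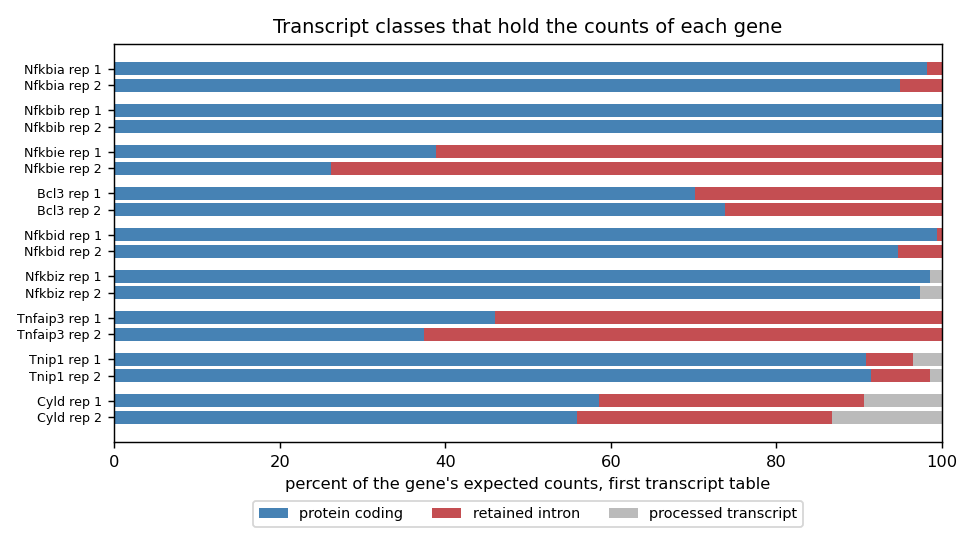
Share of each gene's expected counts, in percent, on protein-coding (blue), retained-intron (red) and processed (grey) transcripts of the first transcript table, with 1 bar per replicate. Red holds most of the bars of Nfkbie and Tnfaip3 and under 10% in Nfkbia, Nfkbid and Tnip1, while Nfkbib and Nfkbiz have no annotated retained-intron transcript.

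The retained-intron transcripts of Tnfaip3 and Nfkbie were also their leading transcripts, those with the most counts, in both replicates and both transcript tables. Tnfaip3-205 (6199 bases) had 145 and 254 counts in replicates 1 and 2 of the first table. Relative to Tnfaip3-201 it keeps the whole of intron 5 (1131 bases, 19005732 to 19006862) and of intron 7 (699 bases, 19003758 to 19004456). Nfkbie-202 (3006 bases) had 37.3 and 79.05 counts and keeps the whole of intron 2 of Nfkbie-201 (610 bases, 45558598 to 45559207). The retained-intron transcript of Nfkbia, Nfkbia-202, differs in kind, since 32 of its 701 bases lie outside coding-transcript exons. In the second table it held 14.3% of the Nfkbia counts in each replicate, above its share in the first table. The tables do not give reads per base, so the share says which transcript model took the counts and not that an intron was covered throughout. The annotated retained-intron transcripts also differ in length, from 442 bases in Tnip1 and 509 in Nfkbid to 6199 in Tnfaip3. The order of the genes by share therefore compares unlike models.

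Transcripts of 1 gene that start at different sites held unequal counts. For Tnfaip3, the coding transcript from the internal start without kB matches, Tnfaip3-202, had 83.4 and 136 counts in replicates 1 and 2 of the first table, and Tnfaip3-201 from the upstream start had 56.06 and 27.5. Tnfaip3-202 was the higher of the pair in both replicates, and likewise in the second table, with 131 and 206 counts against 60.3 and 40.8. The leading Tnfaip3-205, with 145 and 254 counts in the first table and 224 and 362 in the second, begins at 19015376, beside the upstream start. It held more than Tnfaip3-202 in both tables, so the use of the Tnfaip3 starts is not settled. For Cyld, the transcript from the start shown above, Cyld-201, had 73.3 and 58.6 counts in the first table, against 331 and 507 for Cyld-203, which starts at 88705222. The second table has the opposite order for this pair, with 210 and 398 counts on Cyld-201 against 142 and 173 on Cyld-203, and it puts another 243 and 431 on Cyld-210, which begins at 88697047 beside the start shown. The use of the Cyld starts is therefore not settled by these tables. Nfkbiz-204, from the start at 55822138, had 137 and 272 counts in the first table, against 29.5 and 25.5 for Nfkbiz-203 from the start at 55838899. The second table has the same order, with 297 and 518 counts against 5.93 and 17.3, and puts 55.3 and 97.9 on the processed transcript Nfkbiz-205, which also begins at 55838899. The tables also differed on Nfkbid. Nfkbid-202, whose start window holds the kB matches, held 144 and 219 counts by the second table and 0 and 0 by the first, where Nfkbid-201 (99.6 and 168) and Nfkbid-203 (96.1 and 88.3) shared nearly all counts. In each of these genes the transcripts compared overlap, so the split of counts among them is uncertain.

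The same transcript led in both replicates of the first table for 9 of the 9 genes (90.2% of 6957 protein-coding genes), and in the second table for 8 of the 9 (90.6%). It was the same across both replicates and both tables for 6 of the 9, beside 72.0% of those genes. The exceptions were Nfkbid, Tnip1 and Cyld. For Tnip1 the second table was led by Tnip1-204 with 282 and 451 counts, a transcript with none in the first table, which was led by Tnip1-205 with 187 and 285. For Cyld the second table was led by Cyld-204 in replicate 1 (308 counts) and by Cyld-210 in replicate 2 (431), and the first by Cyld-203 (331 and 507).

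The second transcript table gave these genes more counts than the gene table from the same libraries. Its counts were 2.19 and 2.12 times those of the gene table at the median of the 9 in replicates 1 and 2, and 1.76 and 1.77 times at the median of 11124 protein-coding genes. The ratio was 2 or more in both replicates for 6 of the 9, beside 30.3% of those genes. Bcl3 had 325 and 488 counts in the second table against 128 and 159 in the gene table. Nfkbia likewise had 339 and 525 counts against 129 and 186. Tnfaip3 was at the low end, with 472 and 715 counts against 309 and 445, as was Nfkbie with 96.0 and 167 against 61 and 107. A ratio near that of all genes was found in Cyld (1.76 in both replicates).

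**Figure D4:**
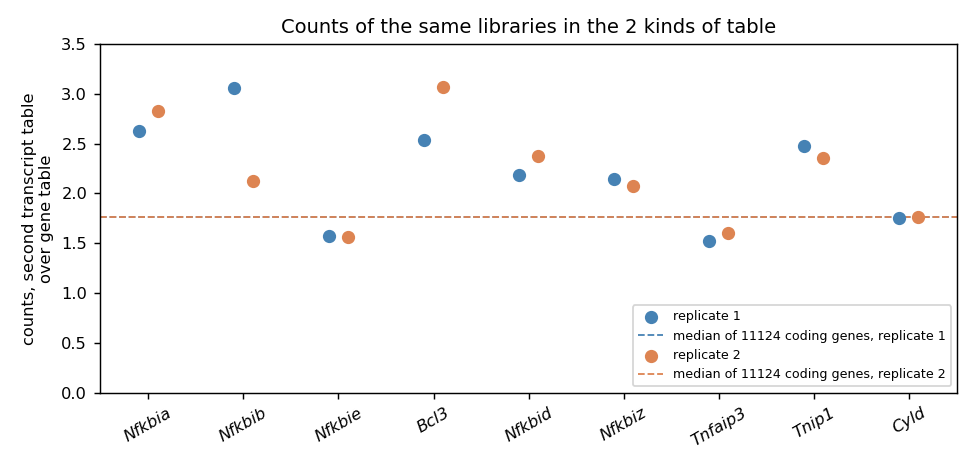
Counts in the second transcript table divided by counts in the gene table for each gene in replicate 1 (blue) and replicate 2 (orange), with the median of 11124 protein-coding genes dashed. Nfkbie and Tnfaip3 lie under the dashed lines at 1.76 and 1.77, Cyld lies on them, and the other 6 genes lie above in both replicates.

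On TPM of the second table rescaled over protein-coding genes alone, the members ran from 209 TPM for Tnip1 to 7.01 TPM for Nfkbie (means of 2). Bcl3 at 102 TPM stood above Cyld at 73.4 TPM, the reverse of their order in the gene table, and the replicate ranges of no neighbouring pair overlapped. Nfkbia came next at 53.7 TPM, then Nfkbid at 48.5, Tnfaip3 at 40.3, Nfkbiz at 25.3 and Nfkbib at 15.0 TPM. Before rescaling, the means of the second table had the same order, with Bcl3 at 32.1 and Cyld at 23.1 TPM. The replicate ranges then overlapped for each neighbouring pair from Bcl3 down to Nfkbiz. On that scale protein-coding genes together held 252435 and 370729 TPM in replicates 1 and 2, against 261977 and 245930 in the gene table. Within each replicate the order of the members was the same before and after rescaling. Only the separation of the ranges across replicates depends on it. Tnip1 was highest and Nfkbib and Nfkbie lowest in both kinds of table. The gene table also holds a posterior mean TPM, and Nfkbiz was the 1 member of 9 in which this was 1.5 times the TPM or more in both replicates (9.58 and 11.01 TPM), beside 5.9% of 11124 protein-coding genes. In replicate 1, 5.06 TPM of it lay on Nfkbiz-206, a transcript of 188 bases with 0 counts.

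Several members share their locus with other genes, and strand is not stated, so reads in the shared bases cannot be assigned with certainty. Sirt2, a deacetylase gene with 811 and 1135 counts, runs opposite Nfkbib and shares 42 exon bases with it. Ccer2 on the same strand as Sirt2 shares 314 exon bases with Nfkbib and had 0 and 2 counts. Opposite Bcl3, the antisense gene Gm16174 shares no exon base with it. Gm16174 held 100 and 111 counts by the second table against 4 and 2 by the gene table. Gm16175, also antisense, shares 161 exon bases with Bcl3 and had 9 and 6 counts by the second table and 0 and 0 in the gene table. The pseudogenes Gm12230 within Tnip1 (40 and 42 counts) and Gm17995 (7 and 14) and Gm17910 (47 and 49) within Cyld share no exon base with them.

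The partners of these proteins were also all detected, and 3 of the 4 lists had a higher median than the members in both replicates of the gene table. By the second transcript table the same 3 lists were higher. The NF-kB subunits were so only narrowly there, at medians of 12.7 and 18.97 TPM against 11.6 and 18.91. The NF-kB subunits that the IkB proteins bind were detected in 5 of 5, with a median of 15.4 TPM in the gene table. Nfkb1, the p105 and p50 gene, was the highest at 52.9 ± 3.49 TPM (SD, n = 2) and Nfkb2 followed at 16.7, while Rel at 12.6 and Relb at 10.6 TPM were the lowest. Added up, the 5 subunit genes came to 113 and 103 TPM in replicates 1 and 2, and the 9 members to 124 and 121 TPM.

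The genes that phosphorylate and degrade IkB were detected in 8 of 8, with a median of 23.1 TPM. The kinase genes Chuk (88.5 ± 2.55 TPM) and Ikbkb (78.2 ± 1.92 TPM) led, and the ubiquitin ligase subunit genes Fbxw11 (9.12) and Skp1a (4.22) were lowest. Of the ubiquitin chain partners of A20, ABIN1 and CYLD, 11 of 11 were detected at a median of 31.6 TPM. Tax1bp1, an A20 adaptor gene, had 53.2 ± 4.22 TPM and Rbck1, which encodes the HOIL-1 subunit of the linear chain ligase, 51.2 ± 1.18 TPM. Tnip3, the gene of ABIN3, stood at 7.77 and Rnf11, another A20 partner, at 6.25 TPM. Among 8 other brakes, 8 were detected at a median of 9.32 TPM, from Nkiras2 (16.4) and N4bp1 (15.9) to Traf3 (8.17) and Commd1 (3.13 TPM). The members had a lower median than the other brakes in replicate 1, at 10.8 against 11.2 TPM. In replicate 2 theirs was higher, at 9.87 against 7.91 TPM, so the gene table does not settle the order. By the second transcript table the members were higher in both replicates, at 11.6 and 18.9 against 10.1 and 13.8 TPM. These levels are compared within each replicate only, since the total on protein-coding genes differs between replicates on that scale, as given above.

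**Figure D5:**
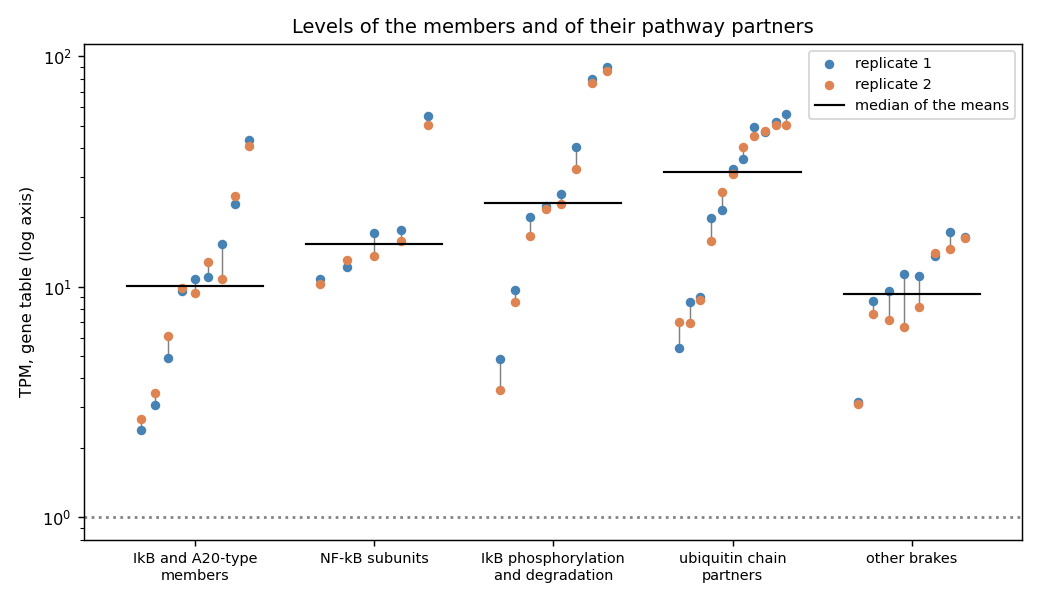
Level of each member and of the genes in 4 lists of pathway partners, in TPM of the gene table (log axis), with replicate 1 in blue, replicate 2 in orange and a line at the median of the means. The medians are 10.1 TPM for the members, 15.4 for the NF-kB subunits, 23.1 for IkB phosphorylation and degradation, 31.6 for ubiquitin chain partners and 9.32 for other brakes.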

How the data were processed

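Total RNA of the chromatin fraction was sequenced in 2 libraries. Per the notes deposited with the files, reads were assigned to GENCODE M21 on mm10, the gene table and first transcript table from a transcriptome alignment and the second from reads and an index. The column names have the layouts of RSEM and kallisto. For strandedness and tool versions, nothing is given in the sources used here. Per gene or transcript, the authors deposited expected counts, which share out ambiguous reads, and TPM values, which also divide by effective length. The phage control phiX held 0.338% and 0.270% of counts and was left out of library sizes, as were the other entries that name no gene.

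The 9 members and all lists were chosen with earlier results of these data known. All members were named, with transcripts holding 10% or more of a gene's counts (Nfkbiz-206 and the markers of other cell types were named after their values were seen), overlapping genes, and the 2 highest and 2 lowest genes of each list. Detection was 1 TPM in both replicates. Expected counts were rounded for TMM scaling (edgeR 4.0.16, R 4.3.3) with its filter on low counts and a pseudocount of 0.5, and DESeq2 1.42.0 size factors were an alternative. The ratio step was checked on simulated data. Ratios of the second table to the gene table used genes with 10 counts or more. A count of 0 allows 3 counts, or 0.274 and 0.212 RPM in replicates 1 and 2. Intervals (95%) cover counting error only. Python 3.11.15 was used for all else.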

Additional observations from a re-analysis of the deposited data

How the results depend on the processing

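The detection of 9 of 9 members, 5 of 5 NF-kB subunits, 8 of 8 IkB phosphorylation and degradation genes, 11 of 11 ubiquitin chain partners and 8 of 8 other brakes did not change at 0.5 or 2 TPM, with posterior mean TPM, in the second transcript table or in either replicate alone. The count of 0 members past 1.5-fold between replicates held with DESeq2 size factors, total counts, no filter, a pseudocount of 5 and second-table counts. The median level, taken here as the mean of the median in each replicate (the text above gives the median of the mean levels), was 10.3 TPM and depended on the scale. It was 15.3 TPM in the second transcript table, 40.6 TPM after rescaling over protein-coding genes and 48.5 TPM with both, the last chosen after seeing the data. Rescaling spreads the same total over fewer genes. With 1 replicate left out it ranged from 9.87 to 10.8 TPM. The median retained-intron share of 28.0% was 38.8% as a share of TPM and 22.0% in the second table, and 26.2% to 29.9% with 1 replicate left out. The cause was not tested. No paired analysis was possible because there is 1 group. With 34 to 1273 counts per member and 2 libraries from 1 donor entry, small differences between members or replicates are not resolved, and the spread of transcript shares is known from 2 values each.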
